A study of Mus musculus with 6 samples.

Results

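The 10 genes described here act in macrophage fusion or at the cell surface and were read from RNAseq of mouse osteoclasts with and without Slc37a2. They were picked by symbol, with earlier results of these data known, and are Dcstamp, Ocstamp, Cd9, Cd81, Cd82, Cd47, Sirpa, Cd44, Adam8 and Tm4sf19. All 10 of them were found among the 22601 genes listed, and all 10 passed the filter on low counts, which kept 13483 genes. None of the 10 differed between genotypes beyond the spread between libraries. Within both genotypes, however, Dcstamp, Tm4sf19, Cd82 and Cd9 were high in the same libraries and low in the same libraries. Across the libraries of both genotypes, Adam8 and Cd81 ran mostly the other way, and Cd47 followed neither order. Sirpa was ordered like Cd81 within each genotype, but not across all libraries together.

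Osteoclasts, the cells that dissolve bone, form when mononuclear precursors of the macrophage line fuse into one cell with many nuclei. DC-STAMP and OC-STAMP, multipass membrane proteins induced by RANKL, are needed for this fusion in mice. Tetraspanins such as CD9, CD81 and CD82 organise other membrane proteins into patches, and CD47, SIRPα, CD44 and ADAM8 act at the contacts between precursors or between the cell and its matrix.

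The series compares WT littermates with Slc37a2 KO mice, and asks which RNAs of the osteoclast depend on the sugar transporter Slc37a2. The KO line carries a gene-trap allele (C57BL/6N-SLC37A2tm2a(KOMP)Wtsi, from the KOMP repository) in all cells of the animal, on a C57BL/6N background. According to the sample labels, bone marrow macrophages of both genotypes were cultured for 5 days in RANKL (10 ng/ml) plus M-CSF (2 ng/ml). The paper's RNAseq methods describe whole femurs and tibias instead, and the headings of the count table give an age of 11 weeks and animal numbers beginning with K or L. The meaning of these letters is not stated. The labels number the libraries of each genotype as biological replicates, and each heading has an animal number of its own.

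There were 3 WT libraries (K090, L080 and L082) and 3 Slc37a2 KO libraries (K089, L078 and L081), with totals from 27552183 to 42522292 counts. Slc37a2 had 60889 to 76013 counts in the WT libraries and 1043 to 1446 in the KO libraries, so the labels held for all 6 (log2 fold change −5.82 ± 0.20 SE, adjusted p = 0.000707 by edgeR). Levels below are scaled CPM, that is, CPM (each count as its share of the library, times a constant) after TMM scaling of the library size. Osteoclast markers other than the members, such as Acp5, Ctsk and Calcr, summed to 40920 to 60979 CPM in WT and 44497 to 79758 CPM in KO libraries. Macrophage markers summed to 5362 to 8474 and 5754 to 7847 CPM, all 12 listed. Stromal markers summed to 875 to 1697 and 687 to 1929 CPM. Markers of osteoblasts and osteocytes, dendritic cells, neutrophils, B cells and red cells each summed to at most 73.3 CPM, with 6 of 8 red cell genes not listed. In RNA from a whole culture, fewer fused cells and less RNA per cell cannot be told apart.

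The members lie on 5 chromosomes (GRCm38, GENCODE M21). Dcstamp spans chr15:39745930-39760938 on the plus strand and Ocstamp chr2:165393760-165400405 on the minus strand. Chromosome 2 also holds Cd82 (chr2:93419111-93463140, minus), Cd44 (chr2:102811141-102901665, minus) and Sirpa (chr2:129592835-129632228, plus). Cd81 (chr7:143052739-143067934, plus) and Adam8 (chr7:139978932-139992562, minus) share chromosome 7, and Cd47 (chr16:49800533-49915010, plus) and Tm4sf19 (chr16:32400506-32408227, plus) share chromosome 16. Cd9 lies at chr6:125460266-125494791 on the minus strand. Short or noncoding genes overlap Cd9, Cd81, Cd82, Cd44 and Adam8, and whether counting used strand is not given, so some of their reads may belong to those genes. Sirpa has near copies (Sirpb1a, Sirpb1b and Sirpb1c) that could share its reads.

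Promoter windows of 5 members that varied together or in opposite directions between libraries are shown next, because the transcription factors that RANKL switches on, NFATc1 and AP-1, bind short motifs upstream of their target genes. Each window runs from 250 to 51 bases before the RefSeq start (RefSeq, GRCm38.p6), is printed 5′ to 3′ on the strand of the gene, and has matches to the NFAT core (GGAAA, or TTTCC for the other strand) in capitals. The windows of Tm4sf19 (chr16:32400256-32400455, plus), Cd9 (chr6:125494811-125495010, minus) and Cd44 (chr2:102901716-102901915, minus) belong to genes that were high where Dcstamp was high. Those of Cd81 (chr7:143052500-143052699, plus) and Adam8 (chr7:139992613-139992812, minus) belong to genes that were low there.
Tm4sf19: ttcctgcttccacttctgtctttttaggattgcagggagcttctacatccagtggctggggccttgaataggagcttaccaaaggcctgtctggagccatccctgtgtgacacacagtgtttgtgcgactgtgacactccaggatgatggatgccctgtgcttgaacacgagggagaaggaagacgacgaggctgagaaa
Cd9: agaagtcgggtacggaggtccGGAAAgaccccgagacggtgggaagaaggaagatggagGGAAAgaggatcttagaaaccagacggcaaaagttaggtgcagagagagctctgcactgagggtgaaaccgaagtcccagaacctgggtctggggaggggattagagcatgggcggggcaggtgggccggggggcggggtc
Cd44: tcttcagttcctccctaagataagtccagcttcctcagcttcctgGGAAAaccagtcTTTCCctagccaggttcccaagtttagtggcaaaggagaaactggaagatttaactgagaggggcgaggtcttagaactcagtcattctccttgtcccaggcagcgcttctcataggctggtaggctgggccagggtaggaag
Cd81: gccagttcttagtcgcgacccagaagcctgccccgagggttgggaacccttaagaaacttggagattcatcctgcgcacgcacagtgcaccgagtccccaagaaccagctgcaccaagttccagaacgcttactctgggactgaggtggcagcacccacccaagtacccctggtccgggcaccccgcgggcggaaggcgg
Adam8: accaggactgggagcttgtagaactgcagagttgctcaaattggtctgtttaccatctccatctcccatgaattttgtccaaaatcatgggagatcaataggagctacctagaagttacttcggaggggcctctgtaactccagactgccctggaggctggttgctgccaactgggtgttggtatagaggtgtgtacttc

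The windows of Cd9 and Cd44 each held 2 NFAT core matches, and those of Tm4sf19, Cd81 and Adam8 held 0. Among all 32851 promoter windows of this length, 48.5% held at least 1 such match. Neither the AP-1 motif TGANTCA (in 5.57% of windows) nor the E-box CACGTG bound by MITF and its relatives (in 4.34% of windows) was found in these 5 windows on either strand, and no matches overlapped. Of the other members, Cd82 had 1 NFAT core match over its 4 windows and Cd47 had none in its 2 windows. Windows of Dcstamp, Ocstamp and Sirpa were not analysed here.

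Expression of the fusion receptors was read first. Dcstamp, which encodes DC-STAMP, stood at 464, 619 and 794 CPM in WT libraries K090, L080 and L082 and at 974, 456 and 860 CPM in KO libraries K089, L078 and L081. The KO group held both the highest and the lowest library, so the groups overlapped. The mean was 626 ± 165 CPM (SD, n = 3) in WT and 764 ± 272 CPM in KO cultures, a log2 fold change of 0.29 ± 0.32 (SE). Ocstamp, which encodes OC-STAMP, stood at 251, 244 and 288 CPM in WT libraries and at 305, 255 and 277 CPM in KO libraries, again with overlap. Its log2 fold change was 0.10 ± 0.10, with a 95% confidence interval of the fold from 0.904 to 1.26. Between the highest and the lowest library Dcstamp differed 2.14-fold and Ocstamp 1.25-fold, so the spread of the receptors was unequal. The ratio of Dcstamp to Ocstamp counts was 1.85, 2.54 and 2.76 in WT libraries and 3.19, 1.79 and 3.11 in KO libraries.

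**Figure D1:**
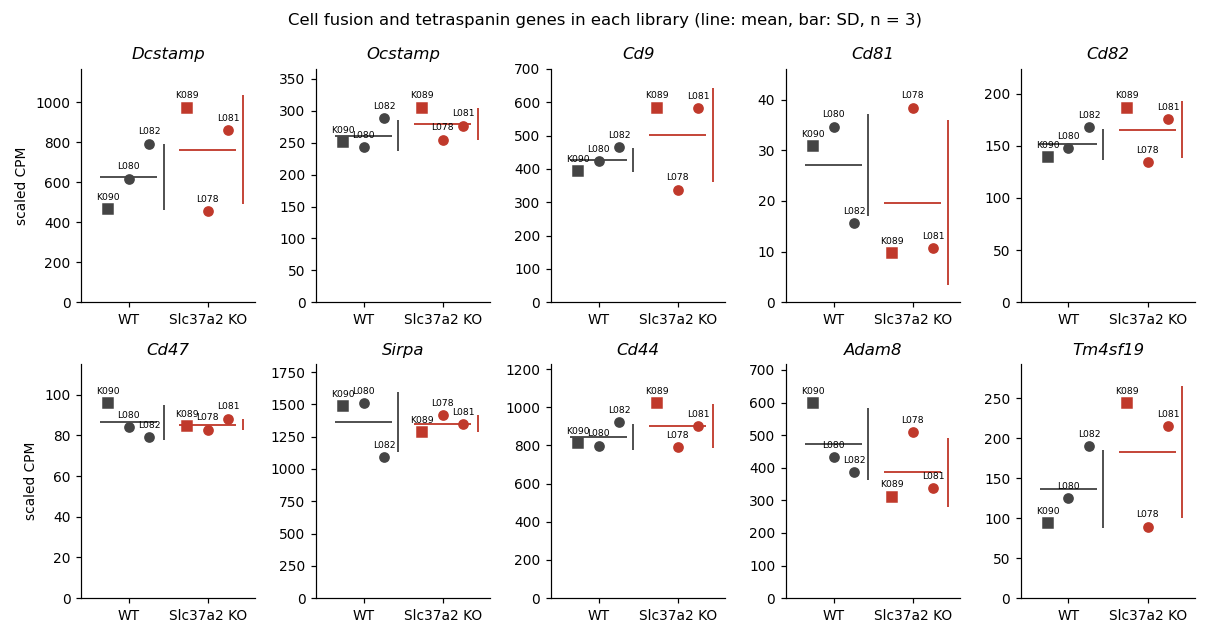
Scaled CPM of the 10 genes in each of 3 WT (grey) and 3 Slc37a2 KO (red) libraries, 1 panel per gene with its own axis from 0; squares are K animals, circles L animals, horizontal lines means and vertical bars SD. In every panel the groups overlap, and for Dcstamp, Cd9, Cd82 and Tm4sf19 the lowest of the 6 libraries is KO library L078 and the highest is KO library K089.

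Among the tetraspanins, Cd9, whose product acts in sperm-egg and myoblast fusion as well as in macrophages, stood at 393, 422 and 464 CPM in WT libraries and at 584, 338 and 582 CPM in KO libraries. Its KO libraries lay on both sides of the whole WT range, and the log2 fold change was 0.23 ± 0.22. Cd81, which encodes a close relative of CD9, ran opposite, at 30.9, 34.7 and 15.7 CPM in WT libraries and 9.73, 38.5 and 10.7 CPM in KO libraries. Its libraries fell into 2 separate sets of 3, each with both genotypes: K090, L080 and L078 lay above 30 CPM and the others below 16 CPM. Cd81 had the widest spread of the members, 3.95-fold between the highest and lowest library, and its log2 fold change of −0.46 ± 0.59 had a 95% interval of the fold from 0.270 to 1.97. Cd82, which encodes a tetraspanin known as a suppressor of metastasis, stood at 139, 148 and 168 CPM in WT libraries and 187, 135 and 175 CPM in KO libraries. Its log2 fold change was 0.13 ± 0.14.

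Since Cd9 and Cd81 ran opposite, their ratio differed more between libraries than either gene. There were 12.7, 12.2 and 29.6 Cd9 counts per Cd81 count in WT libraries K090, L080 and L082, and 60.1, 8.79 and 54.3 in KO libraries K089, L078 and L081. This ratio was lowest and highest within the KO group.

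Cd47, the signal that keeps macrophages from engulfing a cell, and Sirpa, which encodes its receptor SIRPα, had the estimates nearest to 0. Cd47 also had the smallest spread of the members, 1.21-fold between the highest and the lowest library. Cd47 stood at 95.8, 84.1 and 79.4 CPM in WT libraries and at 84.6, 82.9 and 88.3 CPM in KO libraries, with a mean of 86.4 ± 8.44 against 85.3 ± 2.79 CPM (SD, n = 3). Its log2 fold change was −0.02 ± 0.08, and the 95% interval of the fold ran from 0.859 to 1.13. Sirpa stood at 1488, 1507 and 1092 CPM in WT libraries and at 1288, 1415 and 1350 CPM in KO libraries, with WT library L082 low and the KO libraries inside the WT range. The fold had a 95% interval from 0.779 to 1.26. The sign of the estimates of both genes depended on the scaling or on a single library, as given with the processing alternatives. Per Cd47 count there were 13.8 to 17.9 Sirpa counts across the 6 libraries.

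Of the remaining surface proteins, Cd44, the hyaluronan and osteopontin receptor, stood at 812, 800 and 921 CPM in WT libraries and at 1020, 790 and 900 CPM in KO libraries, a log2 fold change of 0.10 ± 0.12. Adam8, which encodes a membrane-bound metalloprotease, stood at 597, 434 and 386 CPM in WT libraries and at 312, 508 and 337 CPM in KO libraries. WT library K090 was highest, KO library K089 lowest, and the log2 fold change was −0.29 ± 0.24. Tm4sf19, a member of the L6 family of four-pass membrane proteins, stood at 94.3, 125 and 190 CPM in WT libraries and at 244, 89.5 and 215 CPM in KO libraries. It had the largest positive estimate of the 10 genes, 0.42 ± 0.42, with a 95% interval of the fold from 0.668 to 2.69.

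By the quasi-likelihood F test of edgeR, with p-values adjusted over all tested genes by the Benjamini-Hochberg method, 0 of 10 members were called at an adjusted p below 0.05, beside 0.00742% of all genes (1 of 13483, Slc37a2 itself). The adjusted p was 0.969 for 8 members, 0.976 for Cd47 and 0.990 for Sirpa in that edgeR test. At an unadjusted p below 0.05 there were 0 members in the quasi-likelihood test, 0 in the likelihood ratio test and 0 in DESeq2's Wald test. Estimates were above 0 for 6 members and below 0 for 4, with a median log2 fold change of 0.10 beside −0.02 over all tested genes. The exact two-sided permutation test of mean CPM, which cannot go below p = 0.1 with 3 libraries against 3, gave p from 0.4 (Cd9) to 1 (Sirpa). No member had groups that did not overlap, beside 4.31% of all tested genes. The plot of estimates and intervals shows that a change of 1.5 on the log2 scale, the limit used by the study, lies outside the interval of all members but Cd81, whose interval reached −1.89.

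**Figure D2:**
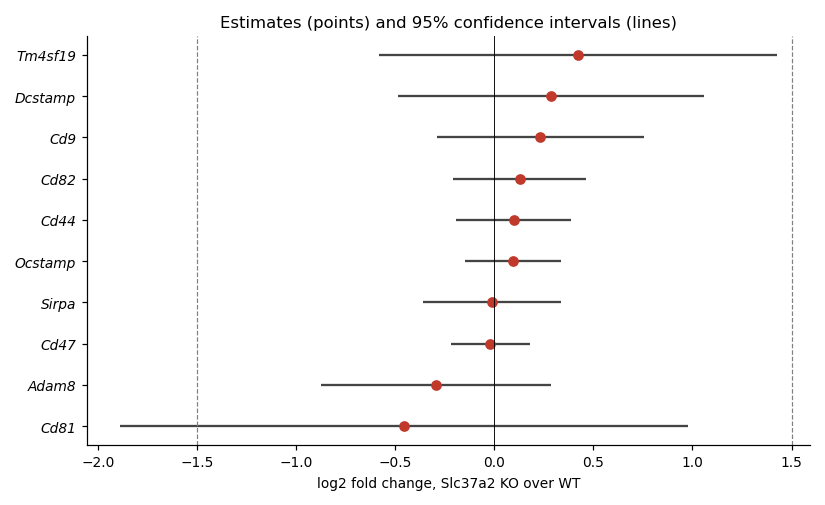
Estimated log2 fold change (Slc37a2 KO against WT) of the 10 genes (points) with 95% confidence intervals (lines) from edgeR's quasi-likelihood fit, n = 3 per genotype; dashed lines mark −1.5 and 1.5. All 10 intervals include 0, from the narrow interval of Cd47 to that of Cd81, which runs from −1.89 to 0.98.

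Single libraries weighed heavily on these estimates. Without KO library L078, 6 members (Dcstamp, Cd9, Cd81, Cd82, Adam8 and Tm4sf19) had groups that did not overlap, but so did 41.6% of all genes then tested. Without WT library L082, this held for 2 members (Ocstamp and Sirpa) and for 16.4% of all genes, and without any of the other libraries for 0 members. Leaving out L078 moved the log2 fold change of Dcstamp from 0.29 to 0.55 and of Cd9 from 0.23 to 0.45. It moved Cd81 from −0.46 to −1.41, Cd82 from 0.13 to 0.26, Adam8 from −0.29 to −0.54 and Tm4sf19 from 0.42 to 0.75. Without WT library L082, Tm4sf19 moved from 0.42 to 0.77, Ocstamp from 0.10 to 0.20 and Cd44 from 0.10 to 0.19. Without KO library K089, the estimates of Dcstamp, Cd81, Cd82, Cd44 and Tm4sf19 shrank to 0.10, −0.12, 0.06, 0.02 and 0.19. No member was called in any of these fits, and the smallest adjusted p was 0.227 (edgeR). Without L078, the unadjusted p of edgeR's quasi-likelihood test was 0.00203 for Cd9, 0.00708 for Cd81 and 0.0303 for Adam8. It was 0.0332 for Cd82, 0.0360 for Tm4sf19 and 0.0451 for Dcstamp, and above 0.05 for the other members. Adjusted over all genes in that edgeR fit, these 6 p-values became 0.227 to 0.243. Low p-values were thus common in that fit and do not mark these members. The share of all genes with such p-values was not counted.

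The letter in the animal number split the estimates as well. Between the 1 KO and 1 WT library of the K animals, the log2 difference was 1.07 for Dcstamp, 1.37 for Tm4sf19, 0.57 for Cd9, −0.94 for Adam8 and −1.66 for Cd81. Between the 2 KO and 2 WT libraries of the L animals, these differences were −0.16, −0.15, 0.0018, 0.02 and −0.20. For Cd47 and Sirpa the K animals gave −0.18 and −0.21 and the L animals 0.07 and 0.11. In a test of the difference between letters (edgeR, genotype by letter interaction, chosen after seeing the data and with 2 residual degrees of freedom), 0 of 10 members were called, beside 0% of all genes, and the smallest adjusted p of a member was 0.855. At an unadjusted p below 0.05 that test held 0 members and 294 genes. With 1 library of each genotype among the K animals, a letter and an animal cannot be told apart there.

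Despite the absence of a genotype difference that passed the test, some of the members were ordered alike across libraries. From low to high, Dcstamp, Tm4sf19, Cd82 and Cd9 all followed L078, K090, L080, L082, L081 and K089, an order with KO libraries at both ends and the WT libraries between them. Over these 6 libraries, log2 CPM of Dcstamp and Tm4sf19 had a Pearson r of 0.996 (exact permutation p = 0.00139, the smallest 6 libraries allow here, adjusted p = 0.0208 over 45 pairs) and a Spearman rho of 1 (exact permutation p = 0.00278, adjusted p = 0.0208). Without the 2 libraries farthest from the Dcstamp median (K090 and L078), r was 0.994. For Dcstamp and Cd82, r was 0.989 (exact permutation p = 0.00139, adjusted p = 0.0208), rho was 1 (exact permutation p = 0.00278, adjusted p = 0.0208), and r was 1.00 without those 2 libraries. For Dcstamp and Cd9, r was 0.943 (exact permutation p = 0.00694, adjusted p = 0.0284), rho was 1 with the p just given, and r was 0.910 without those libraries. The relation to Adam8 was negative, with r = −0.969 (exact permutation p = 0.00417, adjusted p = 0.0284), rho = −0.943 (exact permutation p = 0.0167, adjusted p = 0.0469) and r = −0.971 without those libraries.

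**Figure D3:**
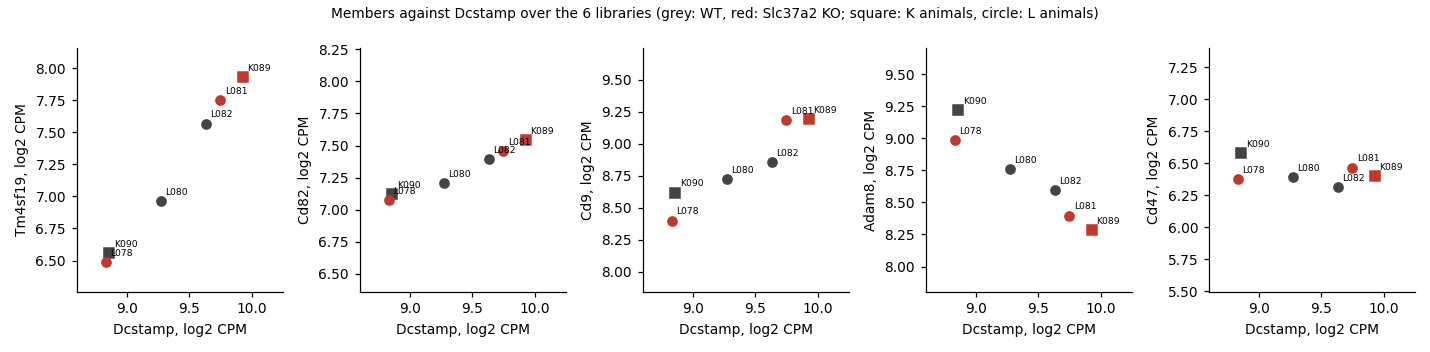
Log2 CPM of Tm4sf19, Cd82, Cd9, Adam8 and Cd47 against log2 CPM of Dcstamp in the 6 libraries, 1 point per library (grey WT, red Slc37a2 KO, squares K animals, circles L animals), with y axes of equal length. Tm4sf19, Cd82 and Cd9 are higher where Dcstamp is higher, Adam8 is lower, Cd47 shows no trend, and in each panel both ends of the Dcstamp range are KO libraries.

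The fusion receptors were less alike. Dcstamp and Ocstamp had r = 0.844 (exact permutation p = 0.0556, adjusted p = 0.0926) and rho = 0.714 (exact permutation p = 0.136, adjusted p = 0.204), with r = 0.941 without K090 and L078. The member most like Ocstamp was Cd44, with r = 0.972 (exact permutation p = 0.00556, adjusted p = 0.0284), rho = 0.829 (exact permutation p = 0.0583, adjusted p = 0.119) and r = 0.963 without the 2 libraries farthest from the Ocstamp median. Neither Cd47 nor Sirpa passed the test against Dcstamp. For Cd47, r to Dcstamp was −0.356 (exact permutation p = 0.514, adjusted p = 0.580) and rho was 0.143 (exact permutation p = 0.803, adjusted p = 0.840). For Sirpa, r to Dcstamp was −0.604 (exact permutation p = 0.201, adjusted p = 0.266) and rho was −0.600 (exact permutation p = 0.242, adjusted p = 0.302). By rank, however, Sirpa ran opposite to Ocstamp, with rho = −0.943 (exact permutation p = 0.0167, adjusted p = 0.0469). Its r to Ocstamp was −0.774 (exact permutation p = 0.0486, adjusted p = 0.0875), and −0.901 without the 2 libraries farthest from the Ocstamp median. No r is given for Cd81, whose libraries formed 2 separate sets. Among the 36 pairs without Cd81, 11 passed an adjusted p of 0.05 by the exact permutation test of r, 8 positive and 3 negative, and none of the 11 involved Cd47 or Sirpa. The share of all gene pairs that would pass this test was not counted. Many other genes shared this order, as given next, so the count does not set the members apart. The K animals have 2 libraries, which allow no correlation. Over the 4 L libraries alone, given without a test, r with Dcstamp was 0.995 for Tm4sf19, 0.991 for Cd82, 0.954 for Cd9 and −0.977 for Adam8.

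Many other genes were ordered the same way. An absolute r over 0.9 with Dcstamp was seen for 23.1% of the other 13482 tested genes, and the median absolute r was 0.701. For Tm4sf19 and Cd82 the shares were 24.4% and 25.1%, for Cd9, Adam8 and Cd44 they were 17.6%, 18.1% and 16.4%, for Ocstamp 12.8%, and for Sirpa and Cd47 they were 3.2% and 1.07%. The first principal component of log2 CPM held 57.7% of the variance of all tested genes and placed L078 at −34.3 and K089 at 40.1, with K090 and L080 on the side of L078. Among genes of at least 10 CPM, Serinc1 (r = 0.999), Trmt61a (r = 0.998) and Fam214b (r = 0.998) were most like Dcstamp, and Dip2a (r = 0.994), Rab35 (r = 0.993) and Pofut2 (r = 0.993) most like Ocstamp, over the 6 libraries and 8691 genes. These r values, the highest of many, are a description without a test. Serinc1 spanned only 312 to 346 CPM where Dcstamp spanned 456 to 974 CPM.

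Osteoclast and macrophage marker lists varied along this order of libraries, in opposite directions. The median osteoclast marker, members left out, deviated from its mean by −0.37, −0.11 and 0.05 on the log2 scale in WT libraries K090, L080 and L082 and by 0.38, −0.30 and 0.23 in KO libraries K089, L078 and L081. For the median macrophage marker the deviations were 0.53, 0.36 and −0.78 in WT and −0.45, 0.64 and −0.19 in KO libraries. Across the 6 libraries, r with Dcstamp was above 0 for 12 of 13 osteoclast markers and for 3 of 12 macrophage markers. Abundant macrophage genes went both ways. Cd68 was among the 3, at 1454, 1578 and 1864 CPM in WT and at 2252, 1491 and 2039 CPM in KO libraries. So was Csf1r, which encodes the M-CSF receptor and spanned 1724 CPM in L078 to 2096 CPM in K089. Lyz2 ran opposite to Dcstamp, at 4288, 3561 and 1249 CPM in WT and at 1021, 3765 and 1401 CPM in KO libraries. Stromal markers had another order, with median deviations of −0.36, 0.23 and 0.67 in WT and −0.55, 0.73 and −0.71 in KO libraries. Their r with Dcstamp was above 0 for 0 of 8 tested. Interferon response genes deviated in the direction of the macrophage markers in all 6 libraries and further, from −1.74 in K089 to 1.73 in K090. Proliferation genes deviated by 0.45, −0.02 and 0.02 in WT and by −0.58, 0.40 and −0.24 in KO libraries. For interferon response and proliferation genes, r with Dcstamp was above 0 for 0 of 12 and 0 of 10. The part of any of these in the members' levels was not tested.

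**Figure D4:**
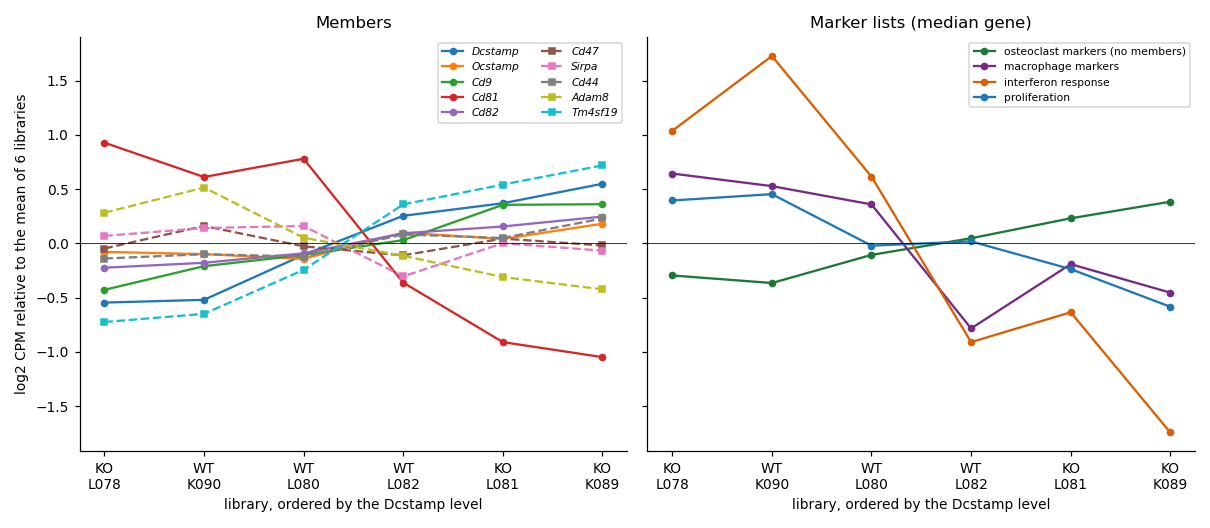
Log2 CPM relative to the mean of the 6 libraries, with libraries on the x axis ordered by their Dcstamp level, for the 10 members (left) and for the median gene of 4 marker lists (right). From L078 on the left to K089 on the right Dcstamp, Tm4sf19, Cd9 and Cd82 climb with the osteoclast markers, Cd81 and Adam8 come down with the macrophage and interferon lists, and Cd47 and Sirpa have no steady slope.

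Compared per length of transcript, Sirpa and Dcstamp were the most abundant members. As CPM per kb of exon over all 6 libraries, Sirpa stood at 276 ± 31.3 (SD, n = 6), Dcstamp at 261 ± 80.8 and Cd9 at 227 ± 49.4. Sirpa was above Dcstamp in 3 of 6 libraries and Dcstamp above Cd9 in 5 of 6, so these neighbours were within their spread, whereas Cd9 was above Cd44 in 6 of 6 with no overlap. Cd44 (129 ± 13.3), Tm4sf19 (127 ± 52.1), Adam8 (92.5 ± 23.4) and Ocstamp (73.8 ± 6.56) followed with overlapping neighbours, except that Ocstamp lay above Cd82 (52.7 ± 7.03) in 6 of 6 libraries. Cd82 lay above Cd47 (13.7 ± 0.901) in 6 of 6 as well. Cd81 was last at 8.11 ± 4.44 CPM per kb, below Cd47 in 5 of 6 libraries. These levels rest on exon lengths that may differ from those of the transcripts present.

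Other genes of the fusion process gave the same picture between genotypes. Of 30 genes on the list, which include Atp6v0d2, Trem2 and Dock5, 29 were tested, 0 were called in either direction, 18 had estimates above 0, and the median log2 fold change was 0.05. Atp6v0d2, a proton pump subunit that is also needed for fusion, had 1976 ± 334 CPM in WT and 2300 ± 524 CPM in KO cultures (SD, n = 3), a log2 fold change of 0.22 ± 0.21 (SE). Its libraries were ordered as those of Dcstamp, from 1699 CPM in L078 and 1719 in K090 to 2659 in K089. Cd36, a scavenger receptor and tetraspanin partner that takes part in macrophage fusion, was listed with the lowest estimate, −0.86 ± 0.69, and its levels of 192, 148 and 61.0 CPM in WT and 30.9, 149 and 39.3 CPM in KO libraries were high in the libraries where Cd81 was high. Trem2, the receptor that signals through DAP12, likewise stood at 108, 96.0 and 36.7 CPM in WT and 28.0, 99.8 and 38.6 CPM in KO libraries.

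Of the 16 transcription factors that drive or hold back the fusion genes, 0 were called and 9 had estimates above 0. Nfatc1, the master regulator that induces Dcstamp, varied little, with 488 ± 18.5 CPM in WT and 504 ± 36.8 CPM in KO cultures. Irf8, a repressor of osteoclast formation, varied 6.68-fold, at 19.1, 15.1 and 5.10 CPM in WT and 2.86, 18.1 and 4.42 CPM in KO libraries, in the direction of Cd81 and Adam8.

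Among 23 tested of 28 other tetraspanins, 0 were called, 12 had estimates above 0 and the median log2 fold change was 0.01. Cd63, the tetraspanin of lysosomes and late endosomes, stood at 581, 709 and 800 CPM in WT and 907, 623 and 853 CPM in KO libraries, highest in K089 like Cd9. Tspan14, a regulator of ADAM10, stood at 146, 153 and 209 CPM in WT and 256, 142 and 216 CPM in KO libraries, in the same order of libraries as Cd9. In contrast, Cd53 and Tspan4 stayed within 103 to 117 and 87.6 to 101 CPM.

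Of 13 tested tetraspanin partners, 3 had estimates above 0 and 0 were called. The immunoglobulin superfamily partners of CD9 and CD81 were steady, with Igsf8 at 64.3 ± 3.53 CPM in WT and 61.0 ± 3.33 CPM in KO cultures and Ptgfrn at 30.0 ± 2.26 and 28.7 ± 2.52 CPM. All 7 other ADAM proteases tested and both other L6 family genes tested had estimates below 0, with medians of −0.21 and −0.44. Of these, 0 were called. Both L6 genes were low, Tm4sf1 at 5.89 CPM in WT and 4.63 CPM in KO cultures and Tm4sf5 at 1.42 and 0.97 CPM. Their log2 fold changes were −0.33 ± 0.59 and −0.55 ± 0.42. Adam10, the main sheddase of many surface proteins, had a log2 fold change of −0.13 ± 0.15 and Adam17 of −0.21 ± 0.24.

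Among 12 tested ligands and partners of CD44, 0 were called. Spp1, which encodes osteopontin, stood at 2149, 2666 and 3163 CPM in WT and 4412, 2428 and 4354 CPM in KO libraries, a log2 fold change of 0.49 ± 0.27, and Mmp9, which encodes a protease that binds CD44, had 0.27 ± 0.28. Vcan, which encodes the hyaluronan-binding proteoglycan versican, was the one gene of these pathway lists with an unadjusted p below 0.05 (log2 fold change −0.54 ± 0.20, adjusted p = 0.969 by edgeR), and it is named after its value was seen. Its groups did not overlap, at 32.2 to 44.8 CPM in WT and 21.1 to 32.1 CPM in KO libraries. They nearly touched, at 32.19 CPM in WT library K090 and 32.13 CPM in KO library L078. Groups also did not overlap for Rdx, Mitf and Tspan8 of these lists, beside 4.31% of all tested genes. Among 13 partners of CD47 and SIRPα, 5 had estimates above 0, with a median of −0.12 and 0 called. Thbs1, which encodes the CD47 ligand thrombospondin-1, spanned 203 to 872 CPM, and Ptpn6 and Ptpn11, which encode the phosphatases recruited by SIRPα, had log2 fold changes of −0.02 ± 0.11 and 0.05 ± 0.07.

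**Figure D5:**
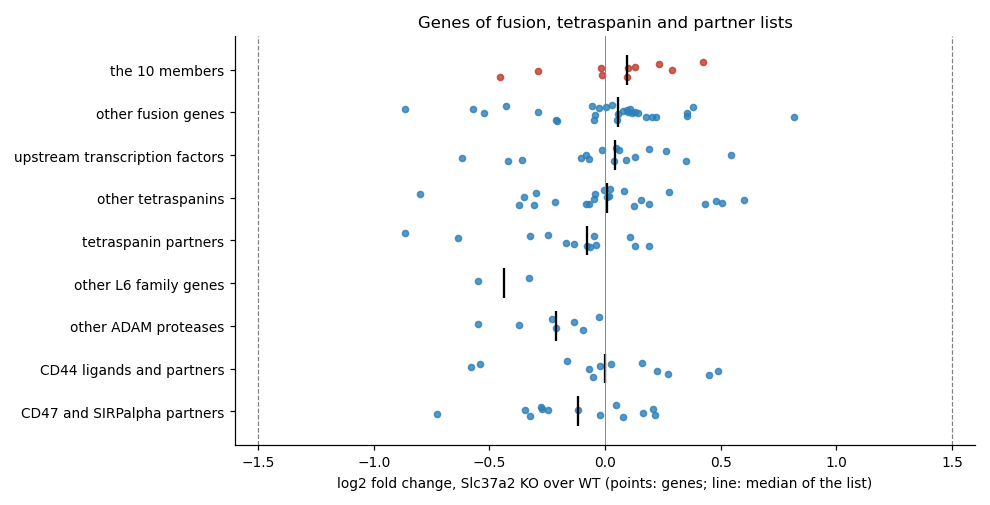
Estimated log2 fold change (Slc37a2 KO against WT) of the 10 members (red) and for the tested genes of 8 lists (blue), 1 point per gene, with the median of each list as a black line and dashed lines at −1.5 and 1.5. Every point lies between the dashed lines. The medians run from −0.44 for the 2 other L6 family genes, both at low levels, to 0.10 for the members.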

How the data were processed

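RNAseq covered 3 WT and 3 Slc37a2 KO libraries. The authors deposited whole-number read counts per gene symbol, not normalized, for 22601 genes, beside their own edgeR comparison (fold changes, p-values and FDR), which was not used. A deposited list of 1000 genes repeats the same counts. The submitters' processing notes name bcl2fastq 2.20.0.422, edgeR 3.30.3 and mm10. The aligner and counting tool: not given in the sources used here. Columns were assigned to a genotype by their heading, and 0 columns belonged to other samples.

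The counts were filtered with filterByExpr at its defaults in edgeR 4.0.16 (R 4.3.3) and scaled by TMM. Genotype was the one term of the quasi-likelihood fit (glmQLFit, glmQLFTest), and p-values were adjusted by the Benjamini-Hochberg method over 13483 genes. Standard errors were taken from the fold change and its F statistic, and intervals are 95% intervals. The biological coefficient of variation was 20.8%. Correlations used log2 CPM with a prior count of 2. The fit was tested on simulated counts with a log2 change of 1.5 in 200 genes. It called 140 of these and 9 unchanged genes, of 13274 tested. Each gene was drawn on its own, without the order of libraries that many genes shared here. Totals of 27552183 to 42522292 counts gave each member at least 265 counts in every library. Exon lengths came from GENCODE M21 and promoter windows from RefSeq. The members and the gene lists were chosen with earlier results of these data known. Named genes were the members, chosen genes of each list, any list gene called, and the 3 genes most like Dcstamp and Ocstamp. DESeq2 1.42.0, other scalings and filters, the letter K or L of the animal number as a block and leaving out each library were the alternatives. The genotype by letter interaction and the pair counts without Cd81 were added after seeing the data.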

Additional observations from a re-analysis of the deposited data

How the results depend on the processing

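Over 150 alternative estimates of the 10 members, 0 were called and 8 changed sign, all of them for Cd47 or Sirpa. Sirpa turned from −0.01 to 0.006063 with DESeq2 size factors and to 0.005542 in DESeq2's Wald test. With each library left out in turn, Sirpa ran from −0.124 to 0.0665 and Cd47 from −0.0521 to 0.06149. The number of genes called over the whole table was 2 rather than 1 without the filter, in the likelihood ratio test and in DESeq2's Wald test, and 1 without any single library; the members called stayed at 0. The number of members whose groups did not overlap ran from 0 to 6 with a library left out. Without Cd81, 13 of 36 member pairs had an absolute r over 0.9, and this number ran from 12 to 17 with a library left out and was 14 with DESeq2 size factors. For single members, 1.07% (Cd47) to 25.1% (Cd82) of all other tested genes passed the same limit on r. The median log2 fold change of all genes was −0.02 with TMM and −0.08 without scaling beyond library totals. No paired analysis was possible because neither the labels nor the headings state which WT and KO animals belong together. With 3 libraries per genotype, the widest member interval (Cd81) allowed a fold from 0.270 to 1.97. Causes were not tested.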
